A study of Mus musculus with 4 samples.

Results

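In Carm1 KO cells of the mouse melanoma line B16F10, the ratio of Pol II phosphorylated at serine 2 (Ser2P) was followed from the start to the end of each gene. A gene was taken when its Carm1 KO ratio was above 0 both at the transcription start site (TSS) and at the transcription end site (TES), which held for 2839 of the 3117 genes listed at either end. The start-to-end gradient is log2(TES ratio / TSS ratio), so 0 means equal ratios, positive values mean more at the end, and negative values mean an inverted gene. B16F10 is an established line, and Carm1 is an arginine methyltransferase that acts on histones and on RNA-processing proteins. The groups were parental B16F10 cells (WT, called control) and B16F10 cells labelled Carm1 KO. How the knockout was made, and whether it is 1 clone, is not given in the sources used here, and Carm1 itself is in neither table, so its loss could not be checked from these values. Nascent RNA bound to Pol II was sequenced by mNET-seq, with 1 Ser2P library and 1 library of an antibody to the Pol II tail per genotype, each made from 3 pooled sets of cells. There are no replicates, so no value has an error between samples, no test was run, and all statements describe these libraries. Both tables hold ratios with no read counts, and the depth is unknown.

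Pol II carries a long repetitive tail, the carboxy-terminal domain (CTD). Kinases such as CDK9 and CDK12 phosphorylate its serine 2 as the polymerase elongates, so Ser2P is known to be low at promoters and to build up towards the end of the gene, where the tail helps to recruit cleavage and polyadenylation factors. Most mRNAs end at a poly(A) site that follows the hexamer AATAAA. Replication-dependent histone mRNAs are the known exception: they end after a short stem-loop and carry no poly(A) tail.

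Of the 3025 genes in both tables, 186 had no gradient. In 180 of them the TSS ratio was listed at 0 while the TES ratio was above 0, with a TES median of 3.47, and 144 of these 180 had a TSS ratio above 0 in control. Another 4 were at 0 at the TES only and 2 at both ends. Many ratios were coarse: 1577 of the 2839 members had exactly the TSS ratio of another gene, 703 shared their TES ratio, and 1004 shared neither. Of the markers looked for, 9 of 14 melanocyte genes were listed, Tyr, Tyrp1, Pmel and Mlana among them, and 1 of 9 markers of other cell types, the macrophage gene Cd68. Dct and Mitf are not in the tables used here, and a gene can be missing because of how the authors chose the genes, which is not given in the sources used here.

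Some inverted genes and some histone genes are shown with sequences known from the ends of transcripts. The first kind, a polyadenylation hexamer, is shown because in these genes it lies where a neighbouring gene ends, before the start of the inverted gene; most inverted genes had no such hexamer in the window searched. The sequences are from RefSeq, on GRCm38.p6, with the hexamer AATAAA in capitals. The name is that of the inverted gene, followed by the neighbour that ends there.
Naa10, after Renbp, chrX:73922126-73922155, minus strand: atgaaggctcgaAATAAAgatgaccctgtt
Amdhd2, after Atp6v0c, chr17:24163868-24163897, minus strand: ccagctgtgtccAATAAAagttctcggatg
Akap8, after Akap8l, chr17:32321428-32321457, minus strand: gaagtccagcctAATAAAgtgctttcccat
Fut11, after Sec24c, chr14:20694818-20694847, plus strand: aatttgtaaagaAATAAAataagatgtaac
The second is shown because it marks the family with the flattest gradients, the replication-dependent histone genes. These stem-loops were found in GENCODE M21 transcripts (GRCm38), with both arms of the stem in capitals and the loop in lower case. In the order printed, 42, 33, 369 and 28 bases of the annotated transcript follow the stem-loop. Hist1h3e, with a gradient of 0.91, is not itself a flat gene.
Hist1h2ad, chr13:23574895-23574910, plus strand: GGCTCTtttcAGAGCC
Hist1h4f, chr13:23551291-23551306, minus strand: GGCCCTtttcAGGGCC
Hist1h3e, chr13:23561903-23561918, minus strand: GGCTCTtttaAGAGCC
Hist1h4b, chr13:23757366-23757381, plus strand: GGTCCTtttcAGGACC

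Ser2P rose from start to end in nearly all genes of the Carm1 KO cells. The median gradient was 4.01, a TES ratio 16.1 times the TSS ratio, with quartiles at 2.37 and 5.23. The TSS ratio had a median of 0.178 (quartiles 0.0979 and 0.408) and the TES ratio a median of 2.98 (quartiles 1.99 and 4.83). The lowest gradient was -6.83, at Serinc4, and the highest 9.81, at Ints6. Starts differed more among genes than ends did: the interquartile range was 2.06 on the log2 scale for the TSS ratio and 1.28 for the TES ratio. Across genes, TSS and TES ratios were nearly unrelated (Spearman rho -0.04), while the gradient followed the TSS ratio (rho -0.84) more closely than the TES ratio (rho 0.52). Both of the latter hold a built-in share, since the gradient is made from these ratios, and genes are not independent replicates.

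**Figure D1:**
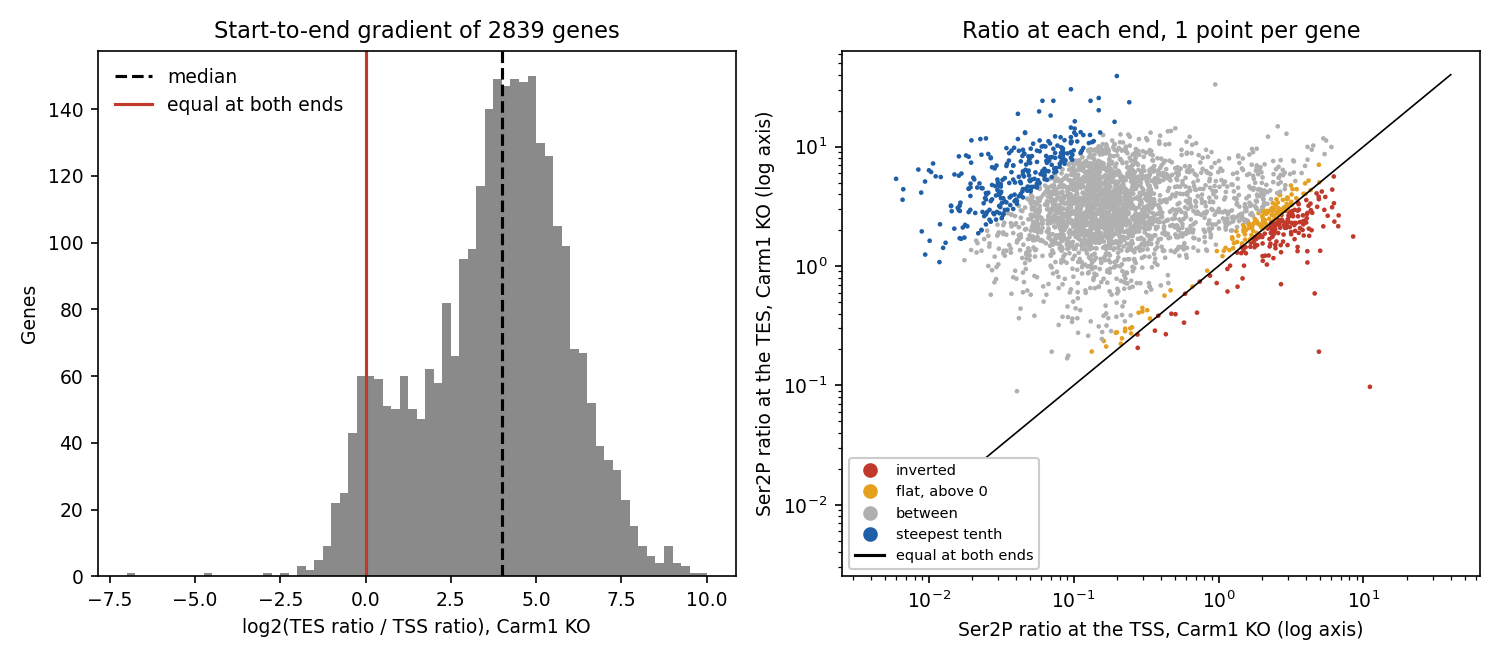
Left, number of genes by start-to-end gradient in Carm1 KO (log2 of TES ratio over TSS ratio, bins of 0.25); the dashed line is the median, 4.01, and the red line marks equal ratios. Right, TES ratio against TSS ratio for the same 2839 genes on log axes, coloured by class; most inverted genes lie at TSS ratios above 1.

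Genes were sorted into inverted genes, flat genes, the steepest decile and the genes between. Inverted genes, with more Ser2P at the start than at the end, numbered 173 (6.09% of 2839). By at least 1.5-fold, 60 genes were inverted (2.11%). Flat genes, within 1.5-fold either way, numbered 248 (8.74%), of which 135 lay above 0. The lowest decile, the bottom 10% of genes, had gradients up to 0.46, and the steepest decile (10%, 284 genes) had gradients of 6.29 or more, that is a TES ratio at least 78.3 times the TSS ratio. In the plot of the gradient over genes, the flat and inverted genes form a shoulder around 0 on the low side of the main peak. The genes next to the border of inversion were Pdcd6, Wnk4 and Zbtb22 just above 0 (all under 0.02) and Il11ra1, Rab24 and Atp6v0b just below it (all above -0.02). Pdcd6, a calcium-binding adaptor, had 4.32 at both ends.

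The steepest genes combined a very low start with an ordinary or high end. Ints6, an Integrator subunit, had a TSS ratio of 0.00597 and a TES ratio of 5.37, a rise of 900-fold. Flvcr1, a heme exporter, went from 0.00849 to 6.42 (gradient 9.56), and Tnpo3, an import receptor for splicing factors, from 0.0107 to 7.21 (9.39). Tfrc, the transferrin receptor, went from 0.00668 to 4.39 (9.36). All of these starts are more than 10 times below the median TSS ratio, while the ends are above the median TES ratio.
The lactate carrier Slc16a1 (0.0104 to 6.12) and the zinc carrier Slc30a7 (0.0197 to 11.3) were also among the 12 steepest genes. So were Paip2b (9.08), the Myc partner Max (9.07), the histone methyltransferase gene Prdm2 (9.0), Minos1 of the mitochondrial inner membrane (8.99) and Nufip2 (8.98). Flvcr1, Tfrc, Slc16a1, Slc30a7, Max and Nufip2 shared neither ratio with any other gene. The next steepest such genes were Smc6 (8.86), a subunit of the SMC5/6 genome maintenance complex, and Rrn3 (8.60), a Pol I initiation factor.

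The most inverted genes had starts as high as ordinary gene ends, or higher. Serinc4 (chr2:121439059-121456781, minus strand, GRCm38) had a TSS ratio of 11.1 and a TES ratio of 0.0974. Ccdc138 had 4.93 and 0.192 (gradient -4.68). After these 2 genes the gradients were much closer to 0. Psmc3ip, a partner of the meiotic recombinases, had 8.49 and 1.77 (-2.27). Vmp1, a membrane protein of autophagy, had 4.10 and 1.07 (-1.94), Tlcd2 had 2.70 and 0.704 (-1.94) and Rogdi had 5.03 and 1.34 (-1.91). Dph2, of diphthamide synthesis, had -1.62, Faap100 of the Fanconi anaemia core complex -1.42, the splicing regulator Rbm4 -1.40, the import gene Timm29 -1.34, Yipf3 -1.30 and Fut11 -1.28.
Over all 173 inverted genes the median TSS ratio was 2.68 and the median TES ratio 1.97. A TSS ratio above 1 was found in 445 genes, and 160 of the 173 inverted genes were among them. Their TES median was close to the lower quartile of all genes, while their TSS median was far above the upper quartile of all genes. Among predicted and noncoding symbols 16 of 235 were inverted, beside 6.09% of all genes, with C87436 (-2.97), 3110040N11Rik (-1.64), the antisense transcript Tomm6os (-1.10) and 4833420G17Rik (-0.84) the most.

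Inverted and flat genes often began where another gene ended. GENCODE M21 placed 2797 members, and for each the end of a protein-coding gene on the same strand was looked for within 1 kb of the start. It was found for 62 of 172 inverted genes (36.0%), 41 of 132 flat genes above 0 (31.1%), 65 of 2210 genes between the classes (2.94%) and 0 of 283 genes of the steepest decile, against 168 of 2797 (6.01%) over all. Within 5 kb the shares were 79.1%, 73.5%, 13.8% and 2.83%. Read the other way, the 168 genes with such an end had a median TSS ratio of 2.03, a median TES ratio of 2.30 and a median gradient of 0.31, and 62 (36.9%) were inverted. The 2629 genes without one had a median TSS ratio of 0.167, a median TES ratio of 3.08 and a median gradient of 4.16, and 110 (4.18%) were inverted. Thus 110 inverted genes had no such end within 1 kb.
This held among short and long genes. Among genes of at most 18047 bp, 41.7% of the 144 with such an end were inverted and 6.61% of the 1255 without. Among longer genes 2 of 24 (8.33%) and 27 of 1374 (1.97%) were inverted, so the first share rests on 2 genes. Median gradients with and without such an end were 0.13 and 3.57 among the shorter genes and 1.35 and 4.75 among the longer.

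**Figure D2:**
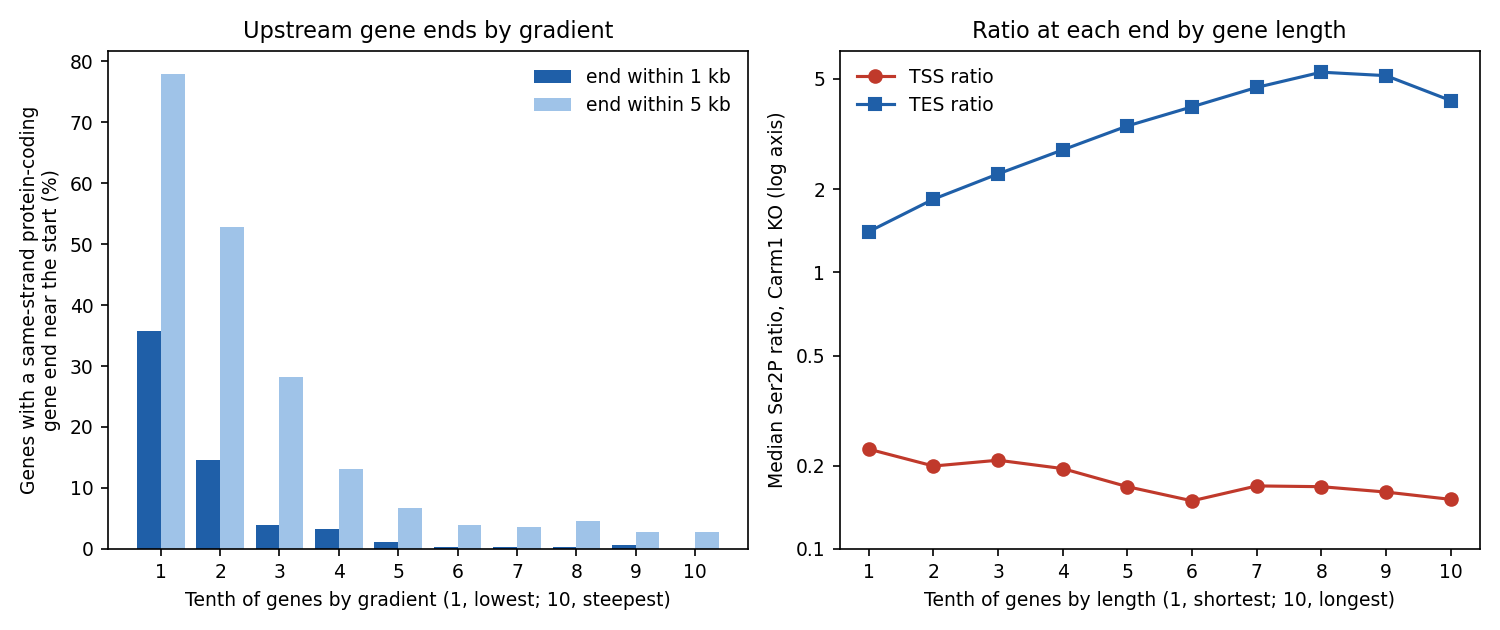
Left, share of genes whose start lies within 1 kb (dark) or 5 kb (light) of a same-strand protein-coding gene end, by decile of the gradient; it falls from the lowest decile, 35.7% and 77.9%, to the steepest, 0% and 2.83%. Right, median TSS and TES ratio in Carm1 KO by decile of gene length, on a log axis; the TES ratio rises with length up to the eighth decile and the TSS ratio changes little.

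Where the neighbour had a TES ratio above 0, the TSS ratio of such a gene was close to it. This could be set side by side for 56 of the 168 genes, 21 of them inverted, and all 56 pairs lay within 2-fold. For the rest of the 168 no such value was at hand. Rogdi had a TSS ratio of 5.03, its upstream neighbour Glyr1 a TES ratio of 4.94, and Rogdi's own end 1.34. Cd68 had 2.16 at its start beside 2.16 at the end of Eif4a1, a translation initiation helicase, and 1.03 at its own end. The chaperone gene Dnajb14 had 1.35 at its start, H2afz, a histone variant, 1.28 at its end, and Dnajb14 0.671 at its end. For the genes whose sites are printed above, Naa10, an N-terminal acetyltransferase, started at 2.51 after Renbp ended at 2.40. Amdhd2 started at 2.08 after the proton pump subunit Atp6v0c ended at 1.92, and the anchoring protein gene Akap8 at 3.57 after its relative Akap8l ended at 2.66. Fut11 started at 3.51, but its neighbour Sec24c had no TES ratio above 0 to set beside it. Cd68, Naa10, Amdhd2 and Akap8 were chosen after their values were seen. Timm29 starts 99 bp from the annotated end of Carm1, the gene named in the knockout label. Its TSS ratio was 6.74 and its TES ratio 2.65. Which bases of Carm1 were removed, and whether its transcript still reaches this end, is not given in the sources used here.

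Over all listed genes, each start was set against the nearest listed same-strand end, upstream or downstream. Within 1 kb, 57 of 59 pairs lay within 2-fold of each other, with a median log2 difference of 0.04 and rho 0.94. The exceptions were Eif4g2 (0.130) beside 1700012D14Rik (1.3) and Rps16 (0.0923) beside AF357399 (0.969). The likeness faded with distance: 87.8% of 41 pairs were within 2-fold at 1001 to 2000 bp, 75% of 32 at 2001 to 3000 bp, 64.3% of 28 at 3001 to 4000 bp, 45% of 20 at 4001 to 5000 bp and 33.3% of 60 at 5001 to 7500 bp. At 20001 to 50000 bp it was 13% of 269 pairs, with rho -0.04. Most ends within 1 kb lay upstream of the start, while many of those farther off lay downstream. The same genes can recur: Rogdi starts 356 bp from the end of Glyr1, and Glyr1 starts 41133 bp from the end of Rogdi. The part of this change of arrangement in the fading was not tested. The first 2 steps of the plot (up to 500 bp) hold 17 and 18 pairs.
Other arrangements changed less with distance. Starts that lie back to back within 1 kb were within 2-fold in 139 of 330 pairs (42.1%, rho 0.14), beside 28.1% of 160 pairs at 20001 to 50000 bp. Ends that face each other within 1 kb were within 2-fold in 34 of 45 pairs (75.6%, rho 0.32), beside 62.1% of 272 pairs at 20001 to 50000 bp. The sources used here give neither the width of the authors' windows nor the strand setting. Within 1 kb the window at a start and that at a neighbour's end may hold the same stretch of genome, and the part of this in the likeness was not tested.

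**Figure D3:**
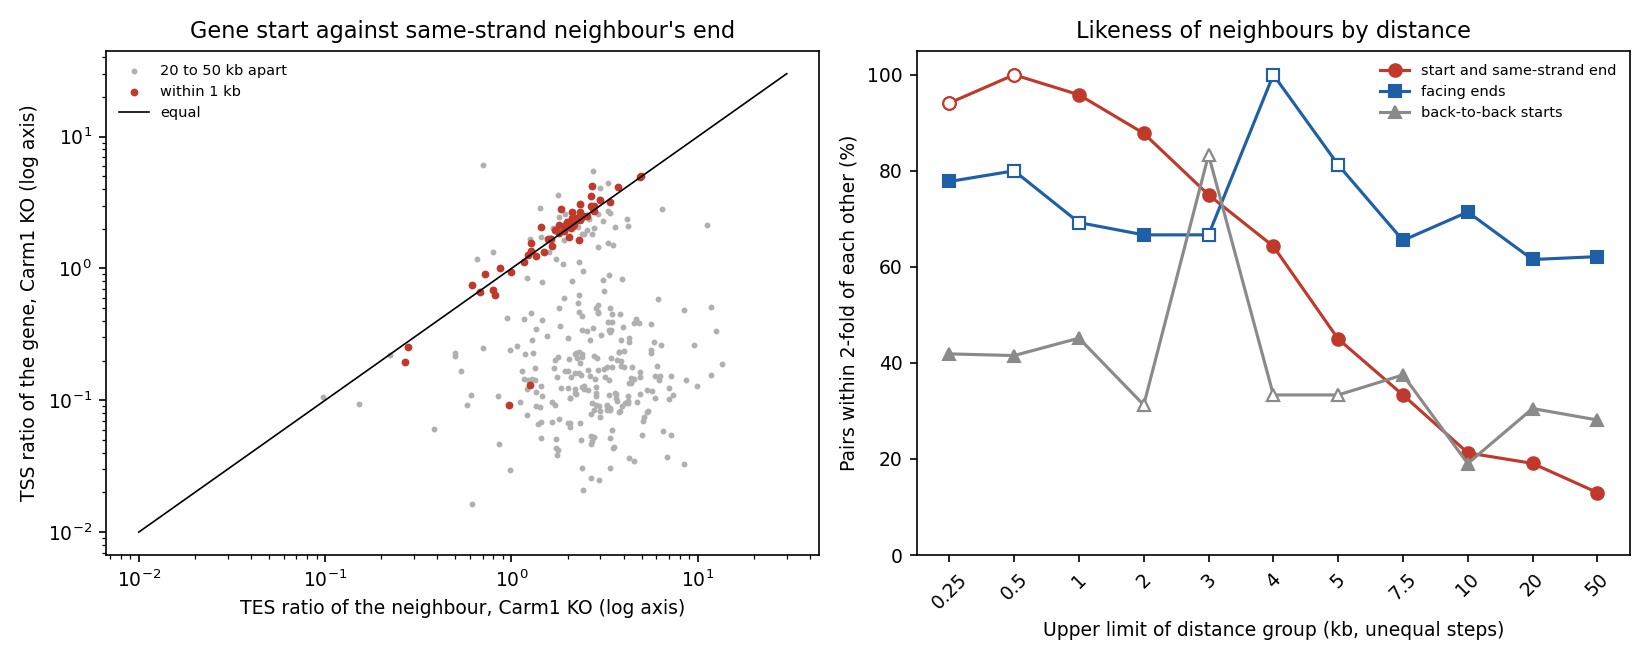
Left, TSS ratio of a gene against the TES ratio of the nearest listed same-strand neighbour end in Carm1 KO, for pairs within 1 kb (red) and 20 to 50 kb apart (grey), on log axes; 57 of the 59 red points lie within 2-fold of the line of equality. Right, share of pairs within 2-fold by distance for 3 arrangements, with open symbols for fewer than 20 pairs.

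Of 16 properties set against the gradient after its values were seen, most differed less between classes than the same-strand end did. A start of an opposite-strand gene within 1 kb of the start, as at a shared promoter, was found for 13.4% of inverted genes, 12.1% of flat genes above 0, 29.1% of genes between and 23.3% of the steepest decile. An opposite-strand gene end near the start was found for 4.65%, 4.55%, 1.09% and 0%. Starts inside another gene made up 22.7%, 18.9%, 17.8% and 11.3%. A same-strand start near the gene's own end was found for 15.7%, 9.09%, 3.76% and 0.707%, and an opposite-strand end near its own end for 18.6%, 24.2%, 12.3% and 8.83%. Whether a ratio at such a crowded start or end holds signal of both genes was not tested.
Of the 173 inverted genes, 25 had no other annotated gene within 1 kb of either end. Ccdc138 and Dph2 were the most inverted of these. They also held the checkpoint kinase Chek1 (4.22 at the start and 1.79 at the end), the ribosome assembly ATPase Mdn1 (3.38 and 1.97) and the nuclear pore gene Nup155 (1.5 and 1.01). Mdn1 was named after its values were seen. Some of the 25 had a listed same-strand gene end farther upstream. Stt3a (TES ratio 3.99) ended 2279 bp from the start of Chek1, and Ranbp2 (2.20) ended 3592 bp from that of Ccdc138. For Dph2 the nearest listed same-strand end lay 7706 bp downstream. How many of the 25 had an upstream end within 5 kb was not counted.

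RefSeq gave a promoter window (250 bases before to 50 after the start) within 1 kb of the annotated start for 2144 members. AATAAA stood on the gene's own strand in 13.1% of 137 inverted genes, 7.37% of 95 flat genes above 0, 5.70% of 1683 genes between and 7.86% of 229 genes of the steepest decile, and in 11.3% of all 32851 windows in the table. On the other strand the shares were 5.84%, 3.16%, 3.74%, 2.18% and 10.5%. Genes with a same-strand gene end within 1 kb had it on their own strand in 30 of 126 windows (23.8%) and genes without one in 109 of 2018 (5.40%). In 12 inverted genes with such a neighbour the hexamer could be placed before the RefSeq start, and in 10 of these, the 4 printed above among them, the neighbour's annotated end lay 19 to 29 bases after it. TATAAA at 40 to 15 bases before the start was found in 0%, 1.05%, 1.19% and 2.62% of the classes, and 1.99% of all windows. The median ratio of observed to expected CpG was 0.786, 0.772, 0.854 and 0.849. A match describes letters in a window and does not show a site in use.

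Longer genes had steeper gradients, and the difference lay mainly at their ends. Spearman's rho with gene length over 2797 genes was 0.41 for the gradient, 0.57 for the TES ratio and -0.15 for the TSS ratio, and 0.37 for the gradient among genes without a same-strand end near the start. In the shortest decile of genes (up to 3141 bp) the median TES ratio was 1.40, the median gradient 1.88, and 17.5% were inverted. In the ninth decile (47547 to 76585 bp) the TES ratio was 5.14, the gradient 4.87 and 2.50% were inverted. In the longest decile the TES ratio was 4.18 and the gradient 4.68. Single-exon genes had a median gradient of 1.89 (113 genes), or 2.48 without histone genes (83 genes), beside 4.11 for genes with more exons. The number of exons itself had a rho of 0.21 with the gradient.

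Gene families were formed from symbols and short lists. Of 37 lists, 36 had at least 5 members, and 1096 members stood in at least 1 of these. The family medians ran from 0.61 to 5.09, with 15 below and 21 above the median of all genes. Some symbol families hold genes that share only the letters: Psmc3ip is no proteasome subunit, and Aurkaip1, Cdc42ep1, Tomm6os and Rbm3os likewise belong by name alone.

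**Figure D4:**
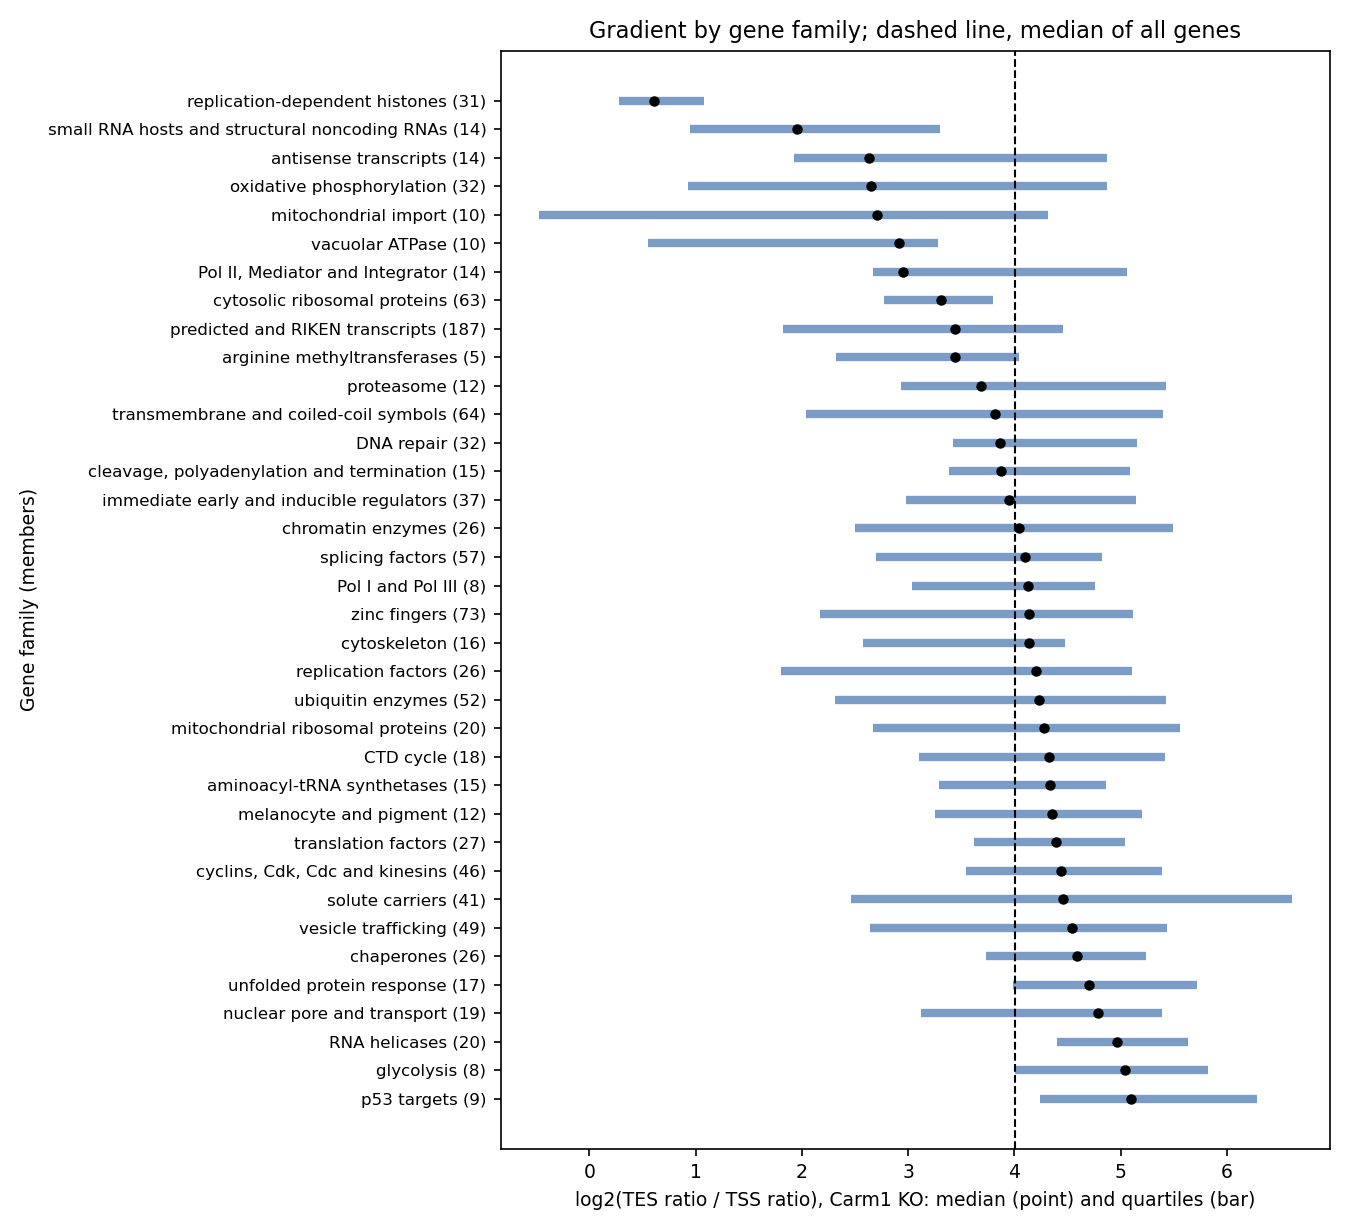
Median (point) and quartiles (bar) of the start-to-end gradient in Carm1 KO for 36 gene families, with the number of members in brackets; the dashed line is the median of all genes, 4.01. The replication-dependent histones stand lowest at 0.61, and the p53 targets highest at 5.09.

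The replication-dependent histone genes had the lowest family median. Their 31 members had a median gradient of 0.61 (1.53-fold), and 15 of 31 were flat and 3 inverted, beside 8.74% and 6.09% of all genes. All 31 lay below the median gradient of all genes. Unlike most inverted genes, they were flat through a low end: the TSS ratio had a median of 0.216, with 9 of 31 below the median of all genes, and the TES ratio a median of 0.363, with 30 of 31 below the lower quartile of all genes. Hist1h4f, a histone H4 gene, had 0.250 at the start and 0.273 at the end, and Hist1h3a, of histone H3, had 0.199 and 0.279. Hist1h2ad (0.971 and 0.720) and Hist1h2af (0.473 and 0.398) had the lowest gradients, -0.43 and -0.25. Hist1h2bc (0.213 and 2.14, gradient 3.33) and Hist1h2ah (0.0839 and 0.376, gradient 2.16) had the highest. Hist1h2bc is annotated over 8710 bp and in 2 exons, and the other 30 genes have a single exon.
Of the 248 flat genes, 216 had a TSS ratio above 1 and 24 had one under 0.5, and 14 of these 24 were histone genes. Histone genes are short, with a median length of 534 bp. Among members up to 1 kb, the 24 histone genes had a median gradient of 0.52, and the 31 other genes one of 1.70 with 8 of them flat. For genes this short the windows at both ends may overlap, and the part of this was not tested. The stem-loop, a 6-base perfect inverted repeat that starts with GG around a 4-base loop that starts with TT, was found in the annotated transcripts of 22 of 31 histone genes (71.0%) and of 19 of 2772 other members (0.685%). It came in 5 versions, the version of Hist1h2ad in 11 genes and those of Hist1h4f and Hist1h3e in 4 each. Histone copies are nearly identical in sequence, so how the authors' counting divided reads among them is uncertain.

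Further families had medians below that of all genes, among them arginine methyltransferase (3.45), proteasome (3.69) and DNA repair genes (3.87). Those with the lowest medians after the histone genes are given here. Small RNA hosts and structural noncoding RNAs (14 members) had a median of 1.95, with Rpph1, the RNA of RNase P, and the telomerase RNA Terc both just below 0, and the host Zfas1 at 7.32. Rpph1 is annotated over 319 bp and Terc over 423 bp, so for them too the windows at both ends may overlap. Rpph1 also starts at chr14:50807767, minus strand, and the repair gene Parp2 at chr14:50807841, plus strand. The part of either in the ratios of these RNAs was not tested. Antisense transcripts (14) had 2.63. Oxidative phosphorylation genes (32) had 2.65, with 7 flat (21.9%, beside 8.74% of all genes) and 3 inverted (9.38%, beside 6.09%). The complex I subunits Ndufb10 (0.711 at the start and 0.407 at the end) and Ndufs8 (1.20 and 1.01) were lowest, and Cox5a of complex IV (0.0249 and 4.08) highest. The median TSS ratio of this family was 0.492, above that of all genes, and its median TES ratio 2.67. Its median gradient was 0.78 over the 14 members that shared neither ratio with another gene, beside 2.98 for all such genes, and 3.90 over the 20 members of at least 5 kb, beside 4.35. Mitochondrial import genes (10) had 2.71 and vacuolar proton pump genes (10) 2.91. Pol II, Mediator and Integrator genes (14) had 2.95. Of these 1 was flat (7.14%, beside 8.74% of all genes) and none was inverted (beside 6.09%). In the steepest decile, which holds 10% of all genes, were 2 (14.3%), so among 14 genes these counts are near those of all genes. Ints5 (1.54 at the start and 1.99 at the end) was lowest and Ints6, given above, highest.
Cytosolic ribosomal protein genes kept close together. Their 63 members had a median of 3.31 and quartiles of 2.78 and 3.80; 53 of 63 lay below the median of all genes, none was in the steepest decile, and 3 were inverted (4.76%, beside 6.09% of all genes). Their median TSS ratio was 0.150 and their median TES ratio 1.49, so their ends were lower than those of most genes and their starts were not high. Rpl10a (1.44 at the start and 1.28 at the end) had the lowest gradient, and Rps20 (0.0262 and 1.45) was steepest.

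Above the median of all genes stood p53 targets (9 members, 5.09), glycolysis genes (8, 5.04), RNA helicases (20, 4.97), nuclear pore and transport genes (19, 4.79) and genes of the unfolded protein response (17, 4.71). The p53 ligase Mdm2 had 0.0401 at the start and 3.59 at the end, and the glucose carrier Slc2a1 had 0.0203 and 5.49. Of the glycolysis genes Tpi1 was lowest (0.682 and 1.71) and starts within 1 kb of the end of Usp5, whose TES ratio was 0.797. Solute carriers (41 members, median 4.46) were spread widely: 13 of 41 were in the steepest decile, which holds 10% of all genes, and Slc25a11 (3.35 and 1.68) and Slc25a10 (2.42 and 2.27) were inverted. Immediate early and inducible genes (37) had a median of 3.95, just below the 4.01 of all genes. None of these 37 was flat or inverted, beside 8.74% and 6.09% of all genes. Of 12 melanocyte and pigment genes 1 was inverted (8.33%, beside 6.09% of all genes). It was Mc1r, the melanocortin receptor gene (1.55 at the start and 1.28 at the end). The tyrosinase gene Tyr had 0.110 and 4.83.

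Of the 47 factors listed for the CTD cycle, which place, read or remove CTD phosphates or act with them, 18 were members. Their median gradient was 4.33, none was flat or inverted, and 2 (11.1%) were in the steepest decile. Over all genes 8.74% were flat, 6.09% inverted and 10% in the steepest decile, so among 18 genes these counts are near those of all genes. Of the kinase side, the serine 2 kinase gene Cdk12 had 0.176 at the start and 2.60 at the end (gradient 3.89). The cyclin T genes of P-TEFb had 0.250 and 1.53 (Ccnt1, 2.62) and 0.0533 and 1.69 (Ccnt2, 4.98). Hexim1, which holds P-TEFb inactive, had 0.366 and 1.37 (1.91), and Larp7, which binds the 7SK RNA, 0.168 and 10.4 (5.96). The super elongation complex gene Aff4 (0.102 and 14.1, gradient 7.12) was the steepest of the 18, and its partner Ell (2.18 and 4.15, gradient 0.93) the shallowest.
On the side of phosphate removal, Ctdp1 had a gradient of 5.83, Rpap2 4.43 and Rprd1b 5.35. Of elongation factors, Nelfb had 3.38, Supt4a 3.91, Tcea1 3.02, Iws1 5.30 and Recql5 5.44. Of termination factors, the exonuclease gene Xrn2 had 6.84, Pcf11 4.22 and the CTD-binding Scaf8 1.61. These values describe transcription of the genes that encode the factors and not the activity of the factors.

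The control columns were used mainly to ask where the order of genes differed. Both conditions rest on 1 library pair each, and each was ranked apart from 0 (lowest gradient) to 100 (steepest) over the 2775 genes above 0 in all columns. The orders were alike, with Spearman's rho 0.76. The low end was kept more than the high end: of the 278 genes in the lowest decile of each, 211 (75.9%) were shared, and of the 278 in the steepest decile 104 (37.4%). Inverted genes numbered 171 in Carm1 KO and 83 in control, and the 58 inverted in both were 33.9% of the former and 69.9% of the latter. The median gene moved by 10.6 ranks, 560 genes (20.2%) by at least 25 and 60 by at least 50.

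**Figure D5:**
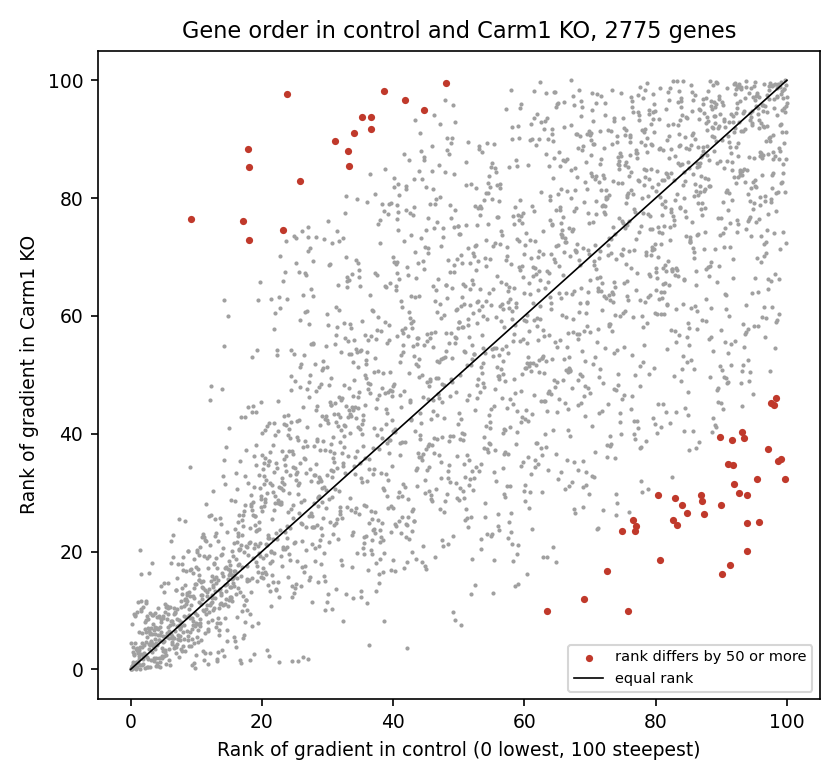
Rank of the start-to-end gradient in Carm1 KO against its rank in control for 2775 genes, with equal ranks on the line and the 60 genes that differ by at least 50 in red. The points are closest to the line at the low end.

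Of the 8 genes that fell furthest in rank in Carm1 KO, the 7 named here had higher starts and lower ends there than in control. Abhd5, a lipase coactivator, had a control TSS ratio of 0.00382 and a Carm1 KO TSS ratio of 0.282, and its rank went from 99.7 to 32.3. Vps13b (rank 90.2 to 16.2), the mitochondrial synthetase gene Lars2 (94.0 to 20.1), Sclt1, Oxct1, Arglu1 and the Pol III subunit gene Polr3g were also among the largest falls, with control TSS ratios up to 0.0436. The TES ratio went from 3.43 in control to 0.383 in Carm1 KO at Vps13b, from 3.24 to 0.341 at Lars2 and from 3.80 to 2.24 at Abhd5. The 8 with the largest rises were the autophagy gene Atg7 (rank 23.9 in control and 97.7 in Carm1 KO), Trappc2l (17.8 and 88.3), Hyls1, Mttp, Xylb, Opa3, Mrfap1 and Gk5. Of the genes named here for their rank shift, Oxct1 and Xylb had ratios shared with no other gene in Carm1 KO.
By family, the median rank of Pol II, Mediator and Integrator genes was 31.9 in Carm1 KO and 66.7 in control, that of cleavage, polyadenylation and termination genes 48 and 79.6, and that of chromatin enzymes 51.2 and 69.7. Chaperones stood at 59.7 and 42.3, and glycolysis genes at 71.6 and 56.8. Histone genes were low in both, at 11.1 and 7.57. Length moved with this: the longest decile of genes had a median rank of 62.7 in Carm1 KO and 78.1 in control, and the shortest 20.4 and 17.4. Its part in the family differences was not tested.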

How the data were processed

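The values are a linear ratio of Ser2P signal to another signal, made by the authors and deposited as 1 table for the TSS and 1 for the TES, with 1 column each for control and Carm1 KO, per the file headers. The sources used here do not give the divisor, windows, scaling, strand setting or gene choice. Reads went through cutadapt 1.18 and TopHat2 2.1.1, with builds mm10 and GRCm38 named, per the submitters' processing notes. Columns were assigned to groups by their names, and the deposited difference column was not used.

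Tables were joined by symbol, genes above 0 at both ends in Carm1 KO were kept, and log2(TES/TSS) was computed with no pseudocount (Python 3.11.15, pandas 2.3.3, SciPy 1.17.1). The calculation was tested on simulated data. Symbols, ignoring case, were looked up among GENCODE M21 basic genes on GRCm38 (2797 found and 42 not). Promoter windows were from RefSeq.

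The members and gene lists were chosen with earlier results of these data known. Named genes were the 12 steepest and 12 most inverted, the 8 of each with unshared ratios, the 6 closest to 0 and the 3 on each side of it, the 2 highest and 2 lowest of each family, all CTD cycle genes, the 8 largest rank shifts each way and the 4 most inverted predicted or noncoding symbols. A few genes taken by this rule are not reported here. Predicted, RIKEN, antisense and small RNA symbols were left out of the first groups. The pattern for antisense symbols first caught Fos, Minos1, Selenos and Slc7a6os, which are protein-coding, and was corrected after values were seen. Neighbour, length and sequence descriptions were added after values were seen. Alternatives were a small value added to keep genes at 0, leaving out shared values, predicted symbols, short genes or genes with close neighbours, other thresholds and Pearson's r. No replicates exist, so none could be left out.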

Additional observations from a re-analysis of the deposited data

Results flagged for a closer look

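Of the named genes, 4 were inverted in Carm1 KO and had the opposite direction in control, by at least 1.5-fold each way. They were 3110040N11Rik (-1.64 in Carm1 KO and 0.98 in control), Dnajb14 (-1.01 and 0.90), Ndufb10 (-0.80 and 2.74) and Fbxl18 (-0.73 and 2.1). Each rests on 1 library pair per condition, and the difference was not tested. In Carm1 KO the TES ratio of Dnajb14 was held by 9 genes in all, and the TSS ratio of Fbxl18 by 5. 3110040N11Rik and Ndufb10 shared neither ratio with another gene. In addition, 180 genes had a TES ratio above 0 and a TSS ratio listed at 0 in Carm1 KO, and so have no gradient here.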

How the results depend on the processing

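With the smallest ratio of each end added and genes at 0 kept, the median gradient was 4.15 and rho with control 0.74. Small values just below 0 then turned positive at Il11ra1 (0.064), Rab24 (0.042), Atp6v0b (0.070), Hist1h2af (0.027), Rpph1 (0.19), Terc (0.15) and Rbm3os (0.028). Without shared ratios (1004 genes) the median was 2.98, 135 genes were inverted (13.4%), 171 flat (17%) and rho was 0.87. Without any annotated gene within 1 kb (916 genes) the median was 4.44, 25 genes were inverted, 37 were flat and rho was 0.73. Among genes of at least 5 kb these were 4.35, 90, 129 and 0.70. Without a same-strand protein-coding end within 1 kb of the start, an alternative chosen after seeing the data, they were 4.16, 110, 161 and 0.72. By a 1.5-fold or 2-fold limit 60 or 23 genes were inverted, and within a tighter or a 2-fold limit 152 or 373 were flat. Pearson's r with control was 0.79. Of the 36 families, 18 kept their side of the median of all genes in every setting they could be computed in, 9 below and 9 above. No paired analysis was possible because each group has 1 library of a kind and no test was run. Depth is unknown, so the precision of low TSS ratios, which the steepest genes rest on, cannot be given.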
